A study of Mus musculus with 13 samples.

Results

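The cytosolic ribosomal protein genes encode the proteins of the ribosomes that translate messenger RNA outside the mitochondria. Members were the gene symbols of the deposited matrices that begin with Rpl or Rps followed by a digit, together with Rpsa, Rplp0, Rplp1 and Rplp2. Symbols marked as pseudogenes (-ps) and the S6 kinase genes (Rps6k) were left out. This gave 86 of 32285 genes: 46 core genes of the large subunit, of which 3 (Rplp0, Rplp1, Rplp2) form the stalk, 31 core genes of the small subunit, and 9 paralogs or look-alikes.

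The data were unique molecular identifier (UMI) counts from single nuclei of the whole frozen hippocampus, with 1 library from each of 13 female mice. The strain was given as C3HB6F1 on the samples and as C3B6F1 in the series text, and no gene was altered. Ad libitum feeding was given to 3 young mice, aged 5 months, and to 3 old mice, aged 24 months. The other old mice were of the same age and had less food, 3 of them since they were 20 months old (acute restriction) and 4 since they were 5 months old (long-term restriction). Each library held 3524 to 12368 barcodes with a median of 3801 to 11375 UMIs, and 1358 of 104391 barcode sequences occurred in 2 or more libraries. A nucleus holds unspliced and newly made RNA, so these values do not measure the ribosome content of the cytoplasm. Whether the counts were corrected for free RNA is not given, so RNA carried over from the cytoplasm cannot be told apart in them.

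Each ribosome has a large subunit, which forms peptide bonds, and a small subunit, which reads the messenger RNA. The stalk proteins of the large subunit recruit the elongation factors. Many ribosomal protein messenger RNAs begin with a run of pyrimidines, through which the mechanistic target of rapamycin complex (mTORC1) controls their translation in response to nutrients. Their genes are short, are transcribed in nearly all cells and are often used as controls. Several proteins of the family have further known roles, such as the binding of Mdm2 by Rpl5 and Rpl11 when ribosome assembly is disturbed.

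Promoter sequences show what the members share outside the counts. RefSeq start sites on GRCm38.p6 were at hand for 66 of the 86 members. In the 300 bases from 250 before to 50 after the start, the letters CCGGAAG (either strand), the core of the binding motif of ETS factors such as GABPA, occurred in 26 of 66 members, which is 39.4%, against 9.93% of 27025 genes. A run of at least 8 pyrimidines (C or T) that lay within 20 bases of the start on either side occurred in 30 of 66 (45.5%) against 18.4%. AAGATGGC, the core of the YY1 motif, occurred in 6 of 66 (9.09%) against 3.19%, and TATAAA in 7 of 66 (10.6%) against 15.7%. CTCGCGAG, a palindrome searched for after a longer one that holds it had been counted, occurred in 7 of 66 (10.6%) against 1.04%, and the longer one in 6 of 66 (9.09%) against 0.525%, all core genes. A match says only that the letters are there. The windows below run from 50 bases before to 20 bases after the start and are shown for members on which the later results turn. Capitals mark CCGGAAG on either strand or the pyrimidine run near the start, which may lie before or after it.

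Rpl13, chr8:123102300-123102369, plus strand: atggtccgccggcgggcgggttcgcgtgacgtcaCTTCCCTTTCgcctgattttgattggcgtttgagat
Rpl26, chr11:68901516-68901585, plus strand: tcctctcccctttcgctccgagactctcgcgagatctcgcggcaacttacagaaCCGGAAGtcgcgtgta
Rps12, chr10:23787190-23787259, minus strand: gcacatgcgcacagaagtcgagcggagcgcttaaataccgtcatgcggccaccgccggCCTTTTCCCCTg
Rpl11, chr4:136053374-136053443, minus strand: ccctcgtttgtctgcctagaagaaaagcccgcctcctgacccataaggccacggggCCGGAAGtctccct
Rpl6, chr5:121204451-121204520, plus strand: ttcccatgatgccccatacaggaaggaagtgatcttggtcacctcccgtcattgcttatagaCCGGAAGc
Rpl7l1, chr17:46782637-46782706, minus strand: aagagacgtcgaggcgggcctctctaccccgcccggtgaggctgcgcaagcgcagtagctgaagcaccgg
Rpl22l1, chr3:28805458-28805527, plus strand: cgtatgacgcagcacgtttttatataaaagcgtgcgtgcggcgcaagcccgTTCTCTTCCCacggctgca

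The windows of Rpl13, Rps12 and Rpl22l1 carry the pyrimidine run, and those of Rpl26, Rpl11 and Rpl6 carry CCGGAAG. The window of Rpl7l1, a paralog of Rpl7 that is not a core ribosomal protein, carries neither. Rpl22l1, the paralog of Rpl22, holds the letters TATAAA upstream of its run, and that of Rpl26 holds CTCGCGAG upstream of its start, both in lower case.

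The members were short genes. Their median span in the GENCODE annotation was 3328 bases, against 24876 for all genes tested in granule-like nuclei, and 82 of 86 spanned under 10000 bases. They lay on 19 chromosomes, and 29 overlapped another annotated gene. Whether strand and intronic reads were used in counting is not given in the sources used here, so reads of overlapping genes cannot be told apart for these 29. Among them are Rpl13 (Gm20388 on the same strand), Rpl23a (Tlcd1 on the opposite strand) and Rpl7l1 (Gm26904 on the opposite strand). Ribosomal protein genes also have many processed pseudogene copies, between which reads may have been split.

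Nuclei were sorted into classes from fixed marker genes, with no member among the genes used for clustering. Classes are named after the cell type whose markers they carried, such as granule-like for dentate granule neurons. Subicular-like nuclei carried markers of a list for subicular or cortical excitatory neurons, so the class may hold either. The marker lists named the classes, so their levels describe the classes and are not a separate check of the names. Oligodendrocyte markers summed to a mean of 19400 CPM (counts scaled to a fixed total of all UMIs of a sum) in oligodendrocyte-like nuclei. Endothelial markers summed to 14600 CPM in endothelial-like and 12.8 CPM in oligodendrocyte-like nuclei. Counts were summed per mouse and class. For 11 classes sums of at least 20 nuclei came from at least 2 mice of each group, and in the fits of these classes 84 members passed the filter on low counts in at least 1 class and 6 in all 11. The 2 members that never passed were Rpl10l, with 2 UMIs in all sums, and Rpl39l, with 4 UMIs, both known from testis. In all, members took 1051388 of 580682537 UMIs in the sums of at least 20 nuclei.

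Endothelial-like nuclei held the largest share of ribosomal protein UMIs. The members took 1.579% ± 0.3161 of the UMIs of a sum (mean ± SD, n = 9 mice) in endothelial-like nuclei. The share was 0.4507% ± 0.1973 (n = 9) in mural-like nuclei, the pericytes and smooth muscle of vessels. It was 0.3608% ± 0.0507 (n = 13) in microglia-like, 0.2776% ± 0.07469 (n = 13) in oligodendrocyte-like and 0.2761% ± 0.1164 (n = 13) in astrocyte-like nuclei. Oligodendrocyte precursor-like nuclei had 0.2045% ± 0.05883 (n = 13). Of the 11 classes fitted, the 5 neuronal ones lay lowest, from 0.189% ± 0.06292 (n = 13) in granule-like to 0.1377% ± 0.0377 (n = 13) in CA3-like nuclei, with inhibitory-like at 0.1596%, subicular-like at 0.1514% and CA1-like at 0.1397% between them. Cajal-Retzius-like nuclei, neurons of a class with too few sums to be fitted, had 0.2753% ± 0.08514 (SD, n = 7).

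Endothelial-like was the highest class in each of the 9 mice that had such a sum. Its shares were 1.349% and 1.767% in young mice, 1.676% and 1.905% in old mice fed ad libitum, 1.214%, 1.713% and 1.535% with acute restriction, and 1.992% and 1.057% with long-term restriction. Down the order, the share was higher in every mouse for endothelial-like over mural-like (8 of 8 mice with both), microglia-like over oligodendrocyte-like, astrocyte-like over precursor-like, precursor-like over granule-like, and granule-like over inhibitory-like (13 of 13 each). The other neighbours crossed: mural-like exceeded microglia-like in 5 of 9 mice, oligodendrocyte-like exceeded astrocyte-like in 10 of 13, and CA1-like exceeded CA3-like in 9 of 13.

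**Figure D1:**
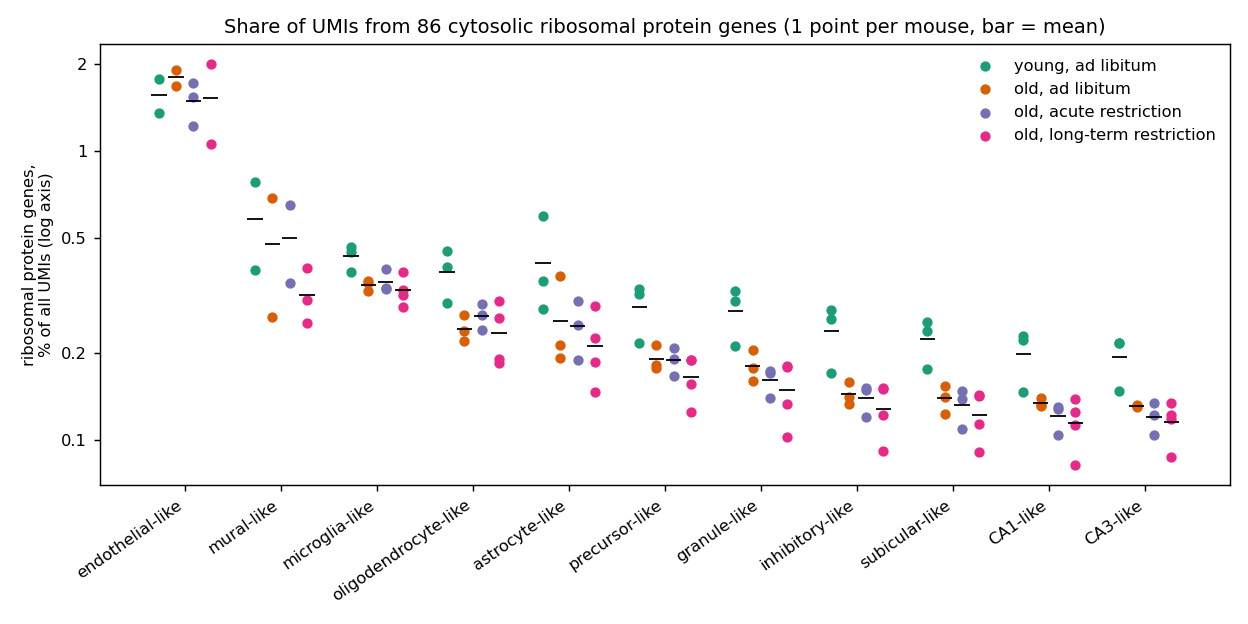
Share of all UMIs that fell in the 86 ribosomal protein genes (log axis, percent), for each class and group; each point is a mouse and each bar a group mean. The endothelial-like points, from 1.057% to 1.992%, lie above those of each other class, and the 5 neuronal classes shown have the lowest means.

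Endothelial-like nuclei were shallow, with median depths of 1295 to 2425 UMIs, yet held 43.76 ± 11.36 member UMIs per nucleus (mean ± SD, n = 9 mice). Granule-like nuclei, with median depths of 3881 to 12794 UMIs, held 13.73 ± 5.222 (n = 13), and CA3-like nuclei, the deepest, 18.06 ± 7.926 (n = 13). Mitochondrially encoded genes took 0.06614% to 0.1586% of UMIs in endothelial-like sums against 0.001381% to 0.006301% in granule-like sums. Nuclear genes of oxidative phosphorylation took 0.5761% ± 0.1174 in endothelial-like (n = 9) and 0.1679% ± 0.04003 in granule-like sums (n = 13). The endothelial-like sums rested on 22 to 84 nuclei and 973 to 4109 member UMIs. They also held markers of astrocytes (10 of 10 detected, 194 to 2990 CPM), of mural cells (9 of 9 detected, 1510 to 2920 CPM over the 9 sums) and of granule neurons (10 of 10 detected, 1660 to 3380 CPM). The part of these other transcripts in the result was not tested.

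Gene by gene, each class was compared with the mean of the other 10 with the mouse as a block (edgeR quasi-likelihood test, Benjamini-Hochberg adjusted p below 0.05 called). Of the 86 members, 82 passed the filter in this fit, and 624 of their 902 comparisons were called, against 60.3% of those of all genes. In endothelial-like nuclei 80 of 82 members were called higher and none lower, against 17.6% of all genes called higher. The members' median log2 difference was 2.336, and that of all genes was -0.392. In CA1-like nuclei 77 of 82 members were called lower (24.2% of all genes), and 78 of 82 were in each of CA3-like (24.9%), inhibitory-like (24.2%) and subicular-like nuclei (24.6%), with none called higher in these 4 classes, where 47.0%, 41.8%, 43.0% and 41.2% of all genes were called higher. The members' medians there were -0.64, -0.80, -0.59 and -0.62.

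The fit scales the sums with TMM factors, so a fitted difference is not the ratio of the CPM levels given below. With library totals and no such factors, an alternative chosen after seeing the data, the median of all genes in endothelial-like nuclei was 0.2264 in place of -0.392, and that of the members was 2.961. All 82 members were then called higher there (27.9% of all genes), as with RLE size factors (24.5%). In CA1-like, CA3-like, inhibitory-like and subicular-like nuclei 82, 82, 82 and 81 were called lower, against 43.9%, 41.8%, 36.1% and 40.0% of all genes.

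The other classes were mixed. Granule-like nuclei had 6 members higher (48.0% of all genes) and 40 lower (24.8%), and precursor-like nuclei 1 higher (30%) and 59 lower (24.0%). Astrocyte-like nuclei had 48 higher (38.8%) and 3 lower (27.3%), and oligodendrocyte-like nuclei 39 higher (32.8%) and 4 lower (33.6%). Microglia-like nuclei had 15 higher (25.0%) and 3 lower (33.8%), and mural-like nuclei 14 higher (9.18%) and 1 lower (18.4%). In microglia-like, granule-like and precursor-like nuclei the members' share called higher lay below that of all genes. With no scaling factors microglia-like nuclei had 67 members higher (39.7% of all genes), mural-like nuclei 57 (16.8%) and granule-like nuclei none higher (26.5%) and 78 lower (46.2%), so these counts depended on the scaling. Since a class is set against the mean of the others, which include endothelial-like nuclei, a class below that mean is not low in all comparisons. With endothelial-like sums left out of the fit, an alternative chosen after seeing the data, 560 of 820 member comparisons were called. The share of all gene tests called over all classes in that fit is not reported here. Granule-like nuclei then had 19 members higher (42.5% of all genes) and 7 lower (29.1%), and precursor-like nuclei 2 higher (30%) and 13 lower (24.2%). CA1-like nuclei had 73 lower (28.4%) and oligodendrocyte-like nuclei 72 higher (36.2%).

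**Figure D2:**
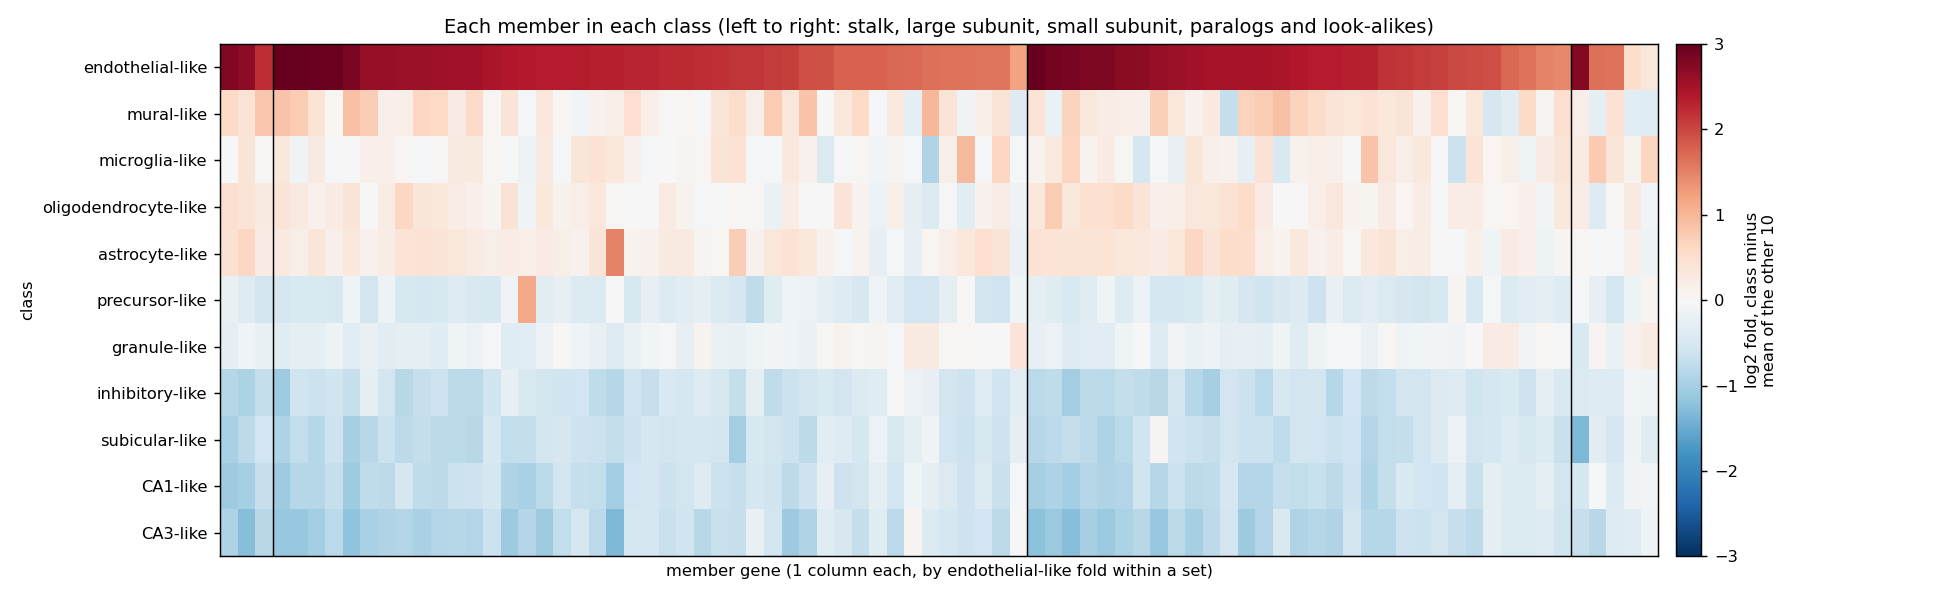
Log2 difference of each of the 82 members tested (columns, grouped as stalk, large subunit, small subunit, and paralogs or look-alikes) in each class (rows) from the mean of the other 10 classes, from the edgeR fit. Columns are ordered by the endothelial-like difference within each set. The endothelial-like row is red for core members, with 1.20 for Rpl6 and 3.16 for Rps4x, and the pyramidal and inhibitory rows are mostly blue.

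The largest differences of any member and class were in endothelial-like nuclei. Rps4x, the X-linked small-subunit gene, was 3.16 higher on the log2 scale (SE 0.14, adjusted p = 1.21e-47, edgeR). Its levels were 291 and 244 CPM in young mice, 233 and 146 CPM in old mice, 137, 313 and 263 CPM in acutely restricted mice and 349 and 106 CPM in long-term restricted mice. All 9 values exceeded the highest granule-like value of 28.1 CPM. Rpl8, which lies near the peptidyl transferase centre, was 2.98 higher. Rpl23 (2.96), Rpl38 (2.94), Rps3 (2.87), Rps29 (2.84), Rpl18 (2.82) and Rps10 (2.81) were also among the largest, with adjusted p-values of at most 1.19e-39.

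The genes named by role, among them the stalk genes, were also highest in endothelial-like nuclei. Rplp0, the scaffold of the stalk, had a mean of 141 CPM in endothelial-like, 22.3 in microglia-like, 25.4 in oligodendrocyte-like, 10.6 in granule-like and 6.5 in CA1-like nuclei. Rplp1 had 383 CPM in endothelial-like and 20.8 CPM in CA1-like nuclei, and Rplp2 had 184 and 14.9 CPM. Rps6, the substrate of the S6 kinases, had 102 CPM in endothelial-like, 8.88 in granule-like and 6.43 in CA1-like nuclei. Rpsa, also known as the laminin receptor, had 312, 30.8 and 20.8 CPM in the same classes. Rps19, mutated in Diamond-Blackfan anaemia, had 160, 17.1 and 12.1 CPM. Rpl5 spread less, with 160, 30 and 24.6 CPM, and its partner Rpl11 more, with 280, 27.7 and 20.3 CPM. Rpl10 (151 and 13.6 CPM in endothelial-like and CA1-like nuclei) and Rpl41 (217 and 34.9 CPM) lay within the same pattern.

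A few members departed from the others. Rpl13 was called higher in precursor-like nuclei by 1.13 (SE 0.06, adjusted p = 4.07e-40, edgeR), where the members' median was -0.39. Its levels there were 313, 233 and 196 CPM in young mice, 209, 164 and 199 CPM in old mice, 165, 121 and 146 CPM in acutely restricted mice and 175, 158, 147 and 148 CPM in long-term restricted mice. In granule-like nuclei of the same mice no value of Rpl13 exceeded 113 CPM, so the 2 classes did not overlap. Rpl13 took 9.086% of the member UMIs of precursor-like sums and 3.264% of those of granule-like sums. Since Gm20388 overlaps Rpl13 on the same strand, these reads may belong to either.

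Rpl36a was the departure of astrocyte-like nuclei, 1.48 higher (SE 0.10, adjusted p = 8.11e-31, edgeR) against a members' median of 0.23. Over the 13 mice it ranged from 16.0 to 43.0 CPM in astrocyte-like nuclei with a mean of 27.7 CPM. Its means were 14.0 CPM in oligodendrocyte-like, 11.2 CPM in precursor-like and 4.22 to 7.7 CPM in the 5 neuronal classes. The retrotransposed paralog Rpl36al did not share this, with 15.3 CPM in astrocyte-like and 10.4 to 11.8 CPM in the neuronal classes (log2 difference -0.03, not called). In microglia-like nuclei Rpl10a (0.96, SE 0.13, adjusted p = 1.21e-10) and Rps9 (0.84, SE 0.11, adjusted p = 9.51e-12) were called higher in the edgeR fit. Rps27 was called lower there (-0.63, SE 0.16, adjusted p = 1.88e-04) but not with no scaling factors (-0.17, adjusted p = 0.378).

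Of the members tested, 2 paralogs were not called in endothelial-like nuclei with TMM factors, and both were called higher with other scaling. Rpl7l1, a paralog of Rpl7 with a role in ribosome assembly, was 0.34 higher (SE 0.25, adjusted p = 0.32, edgeR), and Rpl22l1 0.53 (SE 0.23, adjusted p = 0.0617). Rpl7 was 2.62 and Rpl22 1.70 higher. With no scaling factors Rpl7l1 was 0.96 higher (adjusted p = 0.00302) and Rpl22l1 1.14, against 3.25 for Rpl7 and 2.32 for Rpl22, and with RLE size factors the first pair had 0.81 and 0.99. Rpl7l1 had 37.8 ± 24.3 CPM (SD, n = 9) in endothelial-like against means of 12.9 to 17.8 CPM in the 5 neuronal classes and 39.7 CPM in microglia-like nuclei, and Rpl7 had 192 CPM against 13.1 to 21.0 CPM in the neuronal classes. Rps27l, a paralog of Rps27 that is a known p53 target, was called lower in subicular-like nuclei by -1.35 (SE 0.21, adjusted p = 6.8e-09), but its levels there were at most 2.85 CPM. Rpl3l, the muscle paralog of Rpl3, had a mean of 2.88 CPM in astrocyte-like nuclei and at most 0.602 CPM in the neuronal classes, and it did not pass the filter of this fit. Rpl3 itself had 50.9 CPM in astrocyte-like nuclei. Rps27rt did not pass either, with a mean of 12.1 CPM in endothelial-like and under 2 CPM in the other classes. Rps19bp1, which is named for binding Rps19 and is not a ribosomal protein, was 1.66 higher in endothelial-like nuclei. Rps4l was on the list of paralogs and absent from the gene symbols.

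Within the members, Rpl6 gave the most UMIs, 41441 or 3.942% of the members' total, and Rpl13 had 36028, Rpl41 24789 and Rps2 24510. These UMI numbers may hold reads of overlapping genes and may lack reads split with pseudogene copies. They therefore do not rank transcript levels between genes. Rpl13 had the most UMIs of the members in astrocyte-like, endothelial-like, inhibitory-like, microglia-like, oligodendrocyte-like and precursor-like nuclei, and Rpl6 in CA1-like, CA3-like, granule-like and subicular-like nuclei. Rpl6 was also the core member with the smallest endothelial-like difference, 1.20 (SE 0.11, adjusted p = 1.96e-18, edgeR). It was called higher in granule-like nuclei by 0.38, where 40 members were called lower, but had -0.01 there with no scaling factors (not called).

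Outside the family, the 5 genes whose log2 CPM followed the mean of the core members most closely over the 135 class sums were Fau (Spearman 0.8928), Eef1a1 (0.8717), Ubb (0.84), Ndufb11 (0.8216) and Tpt1 (0.8088). The sums share libraries and depth, so these are descriptions. Fau encodes a small-subunit protein as a fusion with a ubiquitin-like protein, Eef1a1 a translation elongation factor, Ubb ubiquitin, Ndufb11 a subunit of complex I, and Tpt1 a tumour protein whose messenger RNA also begins with pyrimidines. In endothelial-like nuclei Fau was called 3.06 higher and Eef1a1 1.69 higher. Rack1, a ribosomal gene that the symbol rule does not take, was called 2.07 higher there.

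With age, the ribosomal protein genes took a smaller share of the UMIs of most classes. In granule-like nuclei the members' share was 0.3278%, 0.301% and 0.2102% in the young and 0.2046%, 0.1775% and 0.1591% in old mice, both fed ad libitum. In oligodendrocyte-like nuclei it was 0.448%, 0.3942% and 0.2981% in young and 0.269%, 0.2381% and 0.2195% in old mice. In both classes the groups did not overlap, and the ratios of the means were 0.6451 and 0.6372. The mean share was lower in old mice in 10 of 11 classes, with ratios of 0.6069 to 1.149 over the 11, and in 8 classes the groups did not overlap. The exception was endothelial-like nuclei, with 1.349% and 1.767% in young and 1.676% and 1.905% in old mice. Malat1, an abundant nuclear noncoding RNA, took 6.19% to 10.19% of UMIs in young and 3.315% to 6.355% in old granule-like sums, and 8.759% to 15.76% in young and 5.903% to 8.954% in old oligodendrocyte-like sums. Its mean was lower in old mice in all 11 classes, with overlapping groups in each, and its part in the result was not tested.

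Counted per nucleus, the direction changed when old replicate 1 alone was left out. Granule-like nuclei held 22.87, 12.22 and 12.42 member UMIs per nucleus in the young and 27.11, 13.24 and 13.81 in old mice. Oligodendrocyte-like nuclei held 8.667, 4.863 and 4.973 in young and 9.873, 4.981 and 5.505 in old mice. The mean per nucleus was higher in old mice in 10 of 11 classes, with ratios of 0.9487 to 1.479. Without old replicate 1 it was lower in old mice in 10 of 11 classes (0.5526 to 1.37), and with all libraries numbered 1 left out it was again higher in 10 of 11 (0.9909 to 1.583). The share stayed lower in old mice in 10 of 11 classes under both, which were chosen after seeing the data. UMIs of all genes per nucleus in old mice were 1.252 to 1.918 times those in young mice. Median depth was higher in old than in young libraries without overlap in 9 of 11 classes. The part of depth in the result was not tested beyond the covariate below. Replicate 1 of the young and of the old group stood apart from the other replicates, with the highest member UMIs per nucleus of their groups in both classes.

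**Figure D3:**
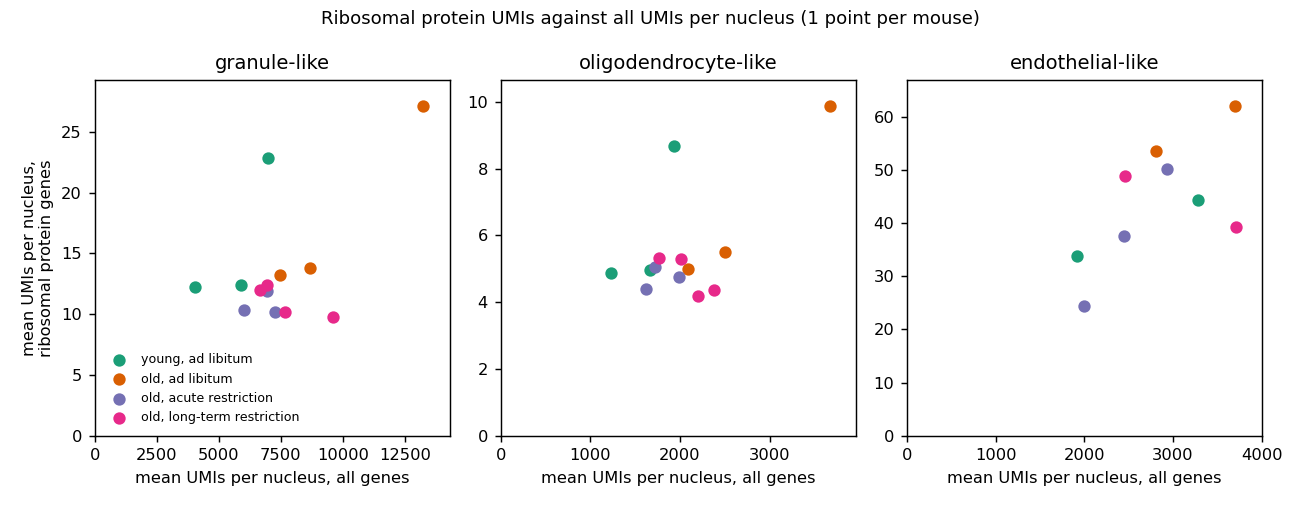
Mean member UMIs per nucleus (vertical) against mean UMIs of all genes per nucleus (horizontal) in granule-like, oligodendrocyte-like and endothelial-like nuclei; each point is a mouse, coloured by group. In the first 2 panels old ad libitum mice lie to the right of the young mice, and replicate 1 of the young and old groups lies highest there, at 22.87 and 27.11 UMIs in granule-like nuclei.

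Genes were tested 1 by 1 within classes (edgeR quasi-likelihood test, adjusted over all genes of the class). The fits used all 13 mice, or 9 in endothelial-like and in mural-like nuclei. Between ages 12 of 745 member tests were called, all lower in old mice. Of all genes, 1.49% were called and 0.632% called lower. DESeq2 called 13 member tests, 1.74% against 3.37% of all gene tests, and 5 of them were among the 12. It kept the 3 calls of granule-like nuclei and Rpl13 in both its classes. The other 7, all in oligodendrocyte-like nuclei, had adjusted p-values of 0.0708 to 0.22 with DESeq2. Oligodendrocyte-like nuclei had 8 of 82 members called lower (4.18% of all genes called lower), granule-like nuclei 3 of 84 (0.864%), inhibitory-like nuclei 1 of 82 (0.045%), and the other 8 classes none. By set, 7 of 423 tests were called for the large subunit, 4 of 287 for the small subunit and 1 of 35 for paralogs and look-alikes. None of 28 was for the stalk genes, of which 27 lay below 0 and 11 had an unadjusted p below 0.05. Over all members 248 of 745 tests (33.3%) had an unadjusted p below 0.05, against 18.1% of all gene tests.

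The direction was shared beyond the calls. The log2 change lay below 0 in 674 of 745 member tests (90.5%), against 52.1% of all gene tests. In 199 member tests the old mice lay below the young without overlap and in 20 above them, against 9.29% of all gene tests with old below young and 12.5% with old above. Class medians of the members were -0.42 in CA1-like, -0.51 in CA3-like, -0.48 in astrocyte-like, -0.45 in granule-like, -0.60 in inhibitory-like, -0.39 in microglia-like, -0.54 in oligodendrocyte-like, -0.56 in precursor-like and -0.56 in subicular-like nuclei, and -0.74 over the 8 members tested in mural-like nuclei. The median of all genes lay between -0.04 and 0.02 in each class. In endothelial-like nuclei the members' median was 0.13, with 25 of 66 tests below 0, from 2 young and 2 old mice. All 84 members tested in granule-like and all 82 tested in inhibitory-like nuclei lay below 0. A filter on low counts decides which members are tested, so these counts are not of all members.

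**Figure D4:**
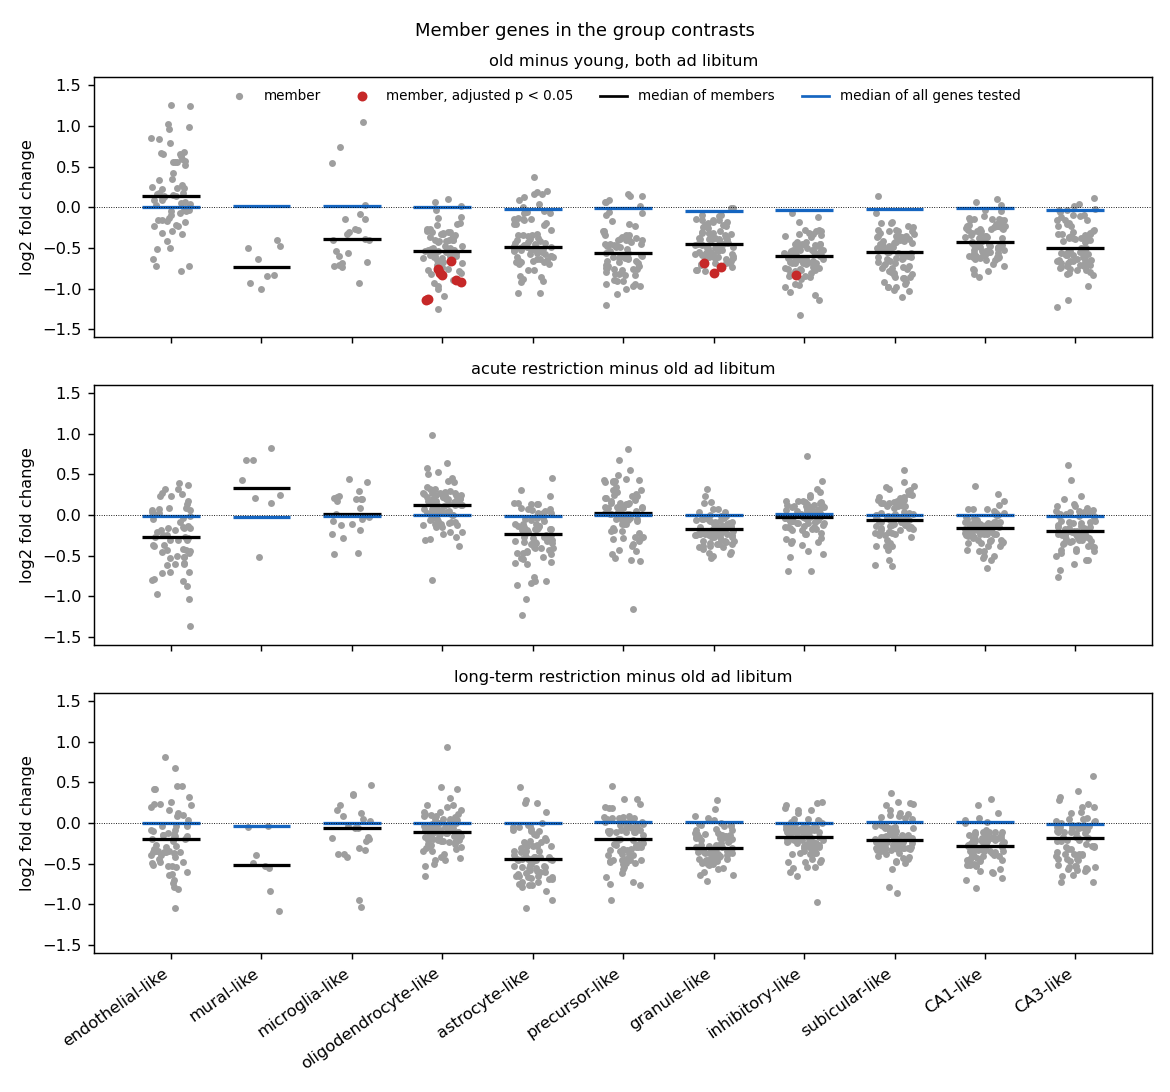
Log2 fold change of each tested member (grey points; red where adjusted p was below 0.05) by class for ageing, acute restriction and long-term restriction, with the members' median in black and that of all genes in blue. Red points appear for ageing alone, 12 in all and all below 0, and the black bars lie below the blue ones for ageing in each class but endothelial-like.

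Within a class, CPM are given over the genes that passed the filter and with TMM factors, so they are not to be set beside the levels between classes above. Rpl13 was called in 2 classes. In oligodendrocyte-like nuclei it had 156, 136 and 103 CPM in the young and 67.1, 78.1 and 63.2 CPM in old mice. Under acute restriction it had 98.8, 75.8 and 85.5 CPM, and under long-term restriction 116, 66.8, 59.0 and 58.3 CPM. Young and old mice did not overlap, and the change was -0.81 (SE 0.20, adjusted p = 0.0133, edgeR). In inhibitory-like nuclei Rpl13 had 99.9, 108 and 72.6 CPM in young and 56.6, 45.5 and 55.7 CPM in old mice, a change of -0.83 (SE 0.15, adjusted p = 0.0441, edgeR). Of 19 marker lists, 4 summed higher in all old than in all young inhibitory-like sums and 1, of fibroblasts, lower. The 4 were those of granule neurons, CA1 neurons, CA3 neurons and oligodendrocyte precursors. The part of these lists in the result was not tested.

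Of the called pairs, Rpl7l1 and Rpl26 in oligodendrocyte-like nuclei had the largest changes. Larger changes that were not called included -1.32 for Rpl7 in inhibitory-like nuclei (adjusted p = 0.0995, edgeR). Rpl7l1 in oligodendrocyte-like nuclei had 19.5, 29.3 and 18.5 CPM in the young and 8.05, 10.9 and 10.7 CPM in old mice (-1.14, SE 0.31, adjusted p = 0.0212, edgeR). Restricted mice lay between or at the young level, with 15.2, 16.9 and 14.6 CPM under acute and 22.6, 20.3, 19.3 and 20.6 CPM in long-term restricted mice. Rpl26, a large-subunit protein that is also known to bind p53 messenger RNA, had 29.2, 39.5 and 35.0 CPM in young and 10.7, 13.3 and 22.1 CPM in old mice (-1.13, SE 0.31, adjusted p = 0.022). Its values were 19.0, 30.6 and 39.4 CPM under acute and 16.2, 28.2, 15.8 and 24.7 CPM in long-term restricted mice, so acute restriction overlapped both ad libitum groups and long-term restriction overlapped the old group only. Counts behind these values were small: Rpl26 had 3, 35 and 36 UMIs in young and 4, 45 and 56 UMIs in old mice, and Rpl7l1 had 2, 26 and 19 UMIs in young and 3, 37 and 27 UMIs in old mice.

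The other calls of oligodendrocyte-like nuclei were smaller. Rpsa had 87.7, 105 and 60.2 CPM in young and 48.3, 46.3 and 39.1 CPM in old mice (-0.92, SE 0.27, adjusted p = 0.034, edgeR). Rps15, a small-subunit protein, had 78.0, 53.0 and 52.5 CPM in young and 29.5, 33.6 and 32.0 CPM in old mice (-0.76, SE 0.23, adjusted p = 0.0344). For Rpl11 the values were 97.5, 71.0 and 61.2 CPM in young and 34.9, 43.6 and 47.0 CPM in old mice (-0.66, adjusted p = 0.0476). In these 3 the ages did not overlap. Rpl8 (-0.83, adjusted p = 0.0467) and Rps20 (-0.89, adjusted p = 0.0468) were called with overlapping groups: Rps20 had 19.5, 46.2 and 43.7 CPM in young and 32.2, 25.3 and 17.8 CPM in old mice. The oligodendrocyte-like sum of young replicate 1 came from 48 nuclei and 92854 UMIs. It held 9 UMIs of Rpsa, 8 of Rps15, 10 of Rpl11, 9 of Rpl8 and 2 of Rps20. Old replicate 1 held 18, 11, 13, 20 and 12 UMIs of the same genes. Overlap between the ages, or its absence, therefore rests on few counts in these 2 sums. Markers of committed precursors, a stage before mature oligodendrocytes, all 7 detected, summed to 915 to 3330 CPM of all UMIs in young and 961 to 993 CPM in old oligodendrocyte-like sums. Markers of dentate granule neurons, all 10 detected, summed to 3720 to 4640 CPM in young and 4850 to 5090 CPM in old oligodendrocyte-like sums, without overlap. The part of either list in the result was not tested.

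In granule-like nuclei, where sums were deepest, 3 members were called. Rpl23a, which lies at the exit of the peptide tunnel, had 14.7, 18.9 and 15.7 CPM in young and 9.97, 8.83 and 9.33 CPM in old mice (-0.81, SE 0.16, adjusted p = 0.0318, edgeR). Rpl7 had 27.3, 31.7 and 22.4 CPM in young and 18.3, 15.1 and 15.6 CPM in old mice (-0.73, SE 0.16, adjusted p = 0.0382). Rps12, a small-subunit protein, had 32.4, 34.8 and 32.2 CPM in young and 18.4, 22.3 and 21.0 CPM in old mice (-0.68, SE 0.15, adjusted p = 0.0414). None of the 3 overlapped between ages. Rps12 had 16.0, 20.1 and 25.8 CPM under acute and 20.2, 22.2, 17.7 and 22.1 CPM in long-term restricted mice. Of 19 marker lists, 6 summed higher in all old than in all young granule-like sums and 1, of mural cells, lower. Markers of oligodendrocyte precursors, all 8 detected, summed to 764 to 819 CPM of all UMIs in young and 949 to 1020 CPM in old mice, those of CA1 neurons, all 9 detected, to 275 to 364 and 381 to 445 CPM, and those of granule neurons, all 10 detected, to 5700 to 6900 and 7460 to 7520 CPM. The part of these lists in the result was not tested.

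**Figure D5:**
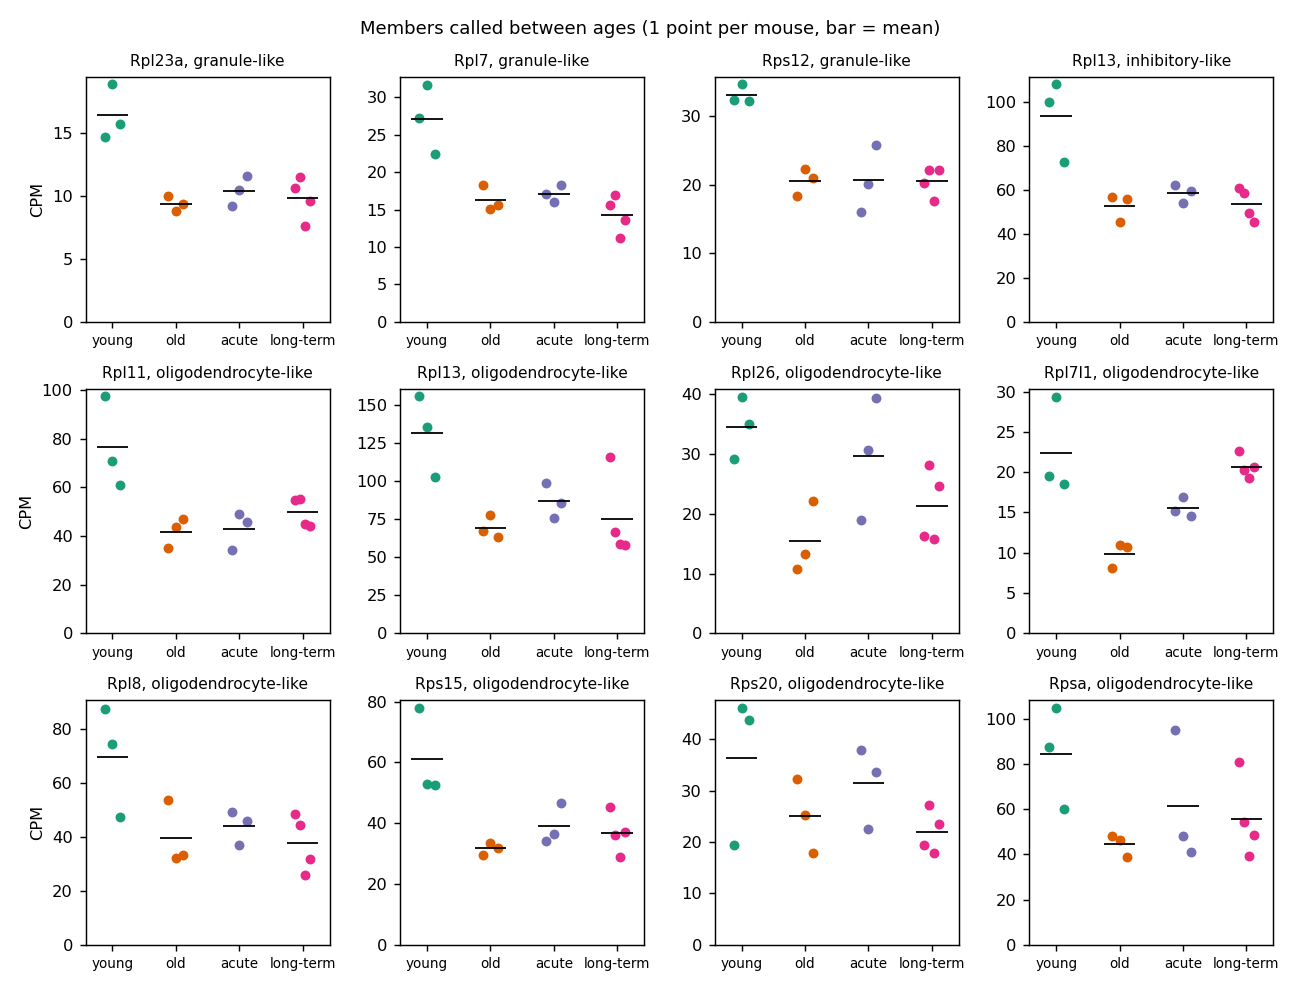
CPM of the 12 member and class pairs called between ages, by group (young, old, acute restriction, long-term restriction); each point is a mouse and each bar a group mean, with vertical axes from 0. Young and old points do not overlap in 10 of the 12 panels; they overlap for Rpl8 and Rps20.

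The genes called lie at the following places (GENCODE vM21 on GRCm38): Rpl13 at chr8:123102350-123105244, Rpl26 at chr11:68901583-68906989, Rpl7l1 at chr17:46773907-46782672, Rpsa at chr9:120127689-120132369, Rps15 at chr10:80292453-80294114 and Rpl11 at chr4:136028265-136053428. Rpl23a is at chr11:78180932-78183584, Rpl7 at chr1:16101295-16104662 and Rps12 at chr10:23785183-23787275. Rpl8 is at chr15:76904078-76906314 and Rps20 at chr4:3831334-3835665.

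Of 78 members tested in at least 8 classes, 76 had a median change below 0 over the classes, and 31 lay below 0 in every class tested. Rps29 and Rpl38 stood apart, as chosen here after their values were seen. The median change of Rps29 over 10 classes was 0.01, with 5 below 0, and that of Rpl38 over 9 classes was 0.02, with 4 below 0. Rps29 in granule-like nuclei had 31.2, 29.2 and 14.4 CPM in young and 34.1, 19.6 and 21.3 CPM in old mice, so the ages overlapped. At the other end, Rpl22l1 had a median change of -0.82 over 8 classes, Rplp0 -0.78 over 9 and Rpsa -0.75 over 10. Rpl22l1 had 34, 29.3 and 21.2 CPM in young and 17.7, 16.5 and 15.0 CPM in old granule-like nuclei, which did not overlap, and its change of -0.79 was not called (SE 0.23, adjusted p = 0.0702, edgeR). Rps6 had changes from -0.67 in inhibitory-like to 0.85 in endothelial-like nuclei and was called in no class.

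The calls depended on how length and depth were treated. With the trend of log2 CPM with gene span removed from each library, no member was called between ages, and the members' medians were -0.008 in CA1-like, -0.011 in granule-like, -0.083 in oligodendrocyte-like and -0.11 in inhibitory-like nuclei. That fit called 0.619% of all gene tests. With the median UMIs per nucleus as a covariate, no member was called and 0.0515% of all gene tests were, so few calls remained for any gene. The members' medians were then -0.45 in granule-like, -0.49 in inhibitory-like and -0.16 in oligodendrocyte-like nuclei. Without young replicate 2 none was called, and without old replicate 2 or old replicate 4 there was 1 call in each case. Over all single omissions the member calls ranged from 0 to 19. The share of all gene tests called in these fits is not reported here, so they do not show whether the members or all genes moved. With the 4 libraries numbered 1 left out, a choice made after seeing the data, 35 member tests were called, all lower in old mice, 10 of them in oligodendrocyte-like and 7 in granule-like nuclei. This was 4.53% of member tests, against 6.45% of all gene tests under that fit. A term for these libraries in place of leaving them out gave 91 calls, 12.2% of member tests against 6.23% of all gene tests.

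Whether the change with age differed between granule-like and oligodendrocyte-like nuclei was tested directly. None of 83 members was called for this difference (edgeR, mouse as a block), against 1.02% of 15852 genes, and DESeq2 also called none. An unadjusted p below 0.05 was found for 9 members (10.8%) and for 10.1% of all genes. The members' median difference was -0.18, and the smallest adjusted p was 0.272, for Rps15a. A missing call does not show that the 2 classes changed alike.

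Dietary restriction, the other factor of the design, gave no member called. Long-term restriction against old mice fed ad libitum called 0 of 745 member tests with edgeR (0.0425% of all genes) and 0 with DESeq2, and 41 member tests (5.5%) had an unadjusted p below 0.05, against 4.94% of all gene tests. The log2 change lay below 0 in 619 of 745 (83.1%), against 49.6% of all gene tests. Acute restriction called 0 of 745 (0.204% of all genes) with edgeR and 0 with DESeq2, with 17 (2.28%) at an unadjusted p below 0.05, against 4.9% of all gene tests. Here 482 of 745 (64.7%) lay below 0, against 49.9%. The classes differed in direction. More members lay above 0 than below in oligodendrocyte-like (59 of 82), precursor-like (44 of 77), microglia-like (12 of 23) and mural-like nuclei (7 of 8). The median of all genes lay between -0.03 and 0.01 in each class. Both comparisons share the old ad libitum libraries. Long-term minus acute restriction called 0 of 745 (0.00994% of all genes) with edgeR and 0 with DESeq2, with 16 (2.15%) at an unadjusted p below 0.05, against 3.26% of all gene tests. The log2 difference lay below 0 in 566 of 745 (76.0%), against 50.6%.

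In granule-like nuclei the members took 0.1705%, 0.1399% and 0.1726% of UMIs with acute restriction and 0.1786%, 0.1802%, 0.1018% and 0.1328% with long-term restriction, against 0.2046%, 0.1775% and 0.1591% in old mice fed ad libitum. Long-term replicate 3 had the lowest value of all 13 mice. The long-term mean share was 0.6661 to 0.9683 times the old ad libitum mean over the 11 classes, and the acute mean 0.8308 to 1.106 times. Groups overlapped in all 11 classes for long-term restriction and in 10 of 11 for acute restriction. For acute restriction the exception was CA1-like nuclei, with 0.1276%, 0.104% and 0.1295% against 0.1394%, 0.1323% and 0.131%. Without old replicate 1 the mean share was lower than in old ad libitum mice in 8 of 11 classes for long-term and in 4 of 11 for acute restriction. With all libraries numbered 1 left out it was lower in 10 of 11 for long-term and in 6 of 11 for acute restriction. Member UMIs per nucleus had a lower mean in all 11 classes under acute (ratio of means 0.4967 to 0.7711) and under long-term restriction (0.4964 to 0.7825). UMIs of all genes per nucleus had ratios of 0.5016 to 0.7561 and 0.7227 to 0.9471. Without old replicate 1 the member ratios were 0.6984 to 1.058 for acute and 0.8207 to 1.031 for long-term restriction, with 10 of 11 classes below 1 in each. In astrocyte-like nuclei acute restriction then had a ratio of 1.058. With all libraries numbered 1 left out, the member ratios lay below 1 in all 11 classes for acute (0.7534 to 0.9709) and for long-term restriction (0.7324 to 0.9621).

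The members nearest to a call under restriction were both in oligodendrocyte-like nuclei, and both were among those lower in old than in young mice. Rpl26 under acute restriction had a change of 0.98 (SE 0.27, adjusted p = 0.0562, edgeR) from the values given above, with 1 of 3 acute mice within the old ad libitum range. Rpl7l1 under long-term restriction had a change of 0.94 (SE 0.26, adjusted p = 0.116, edgeR), and its 4 values, 19.3 to 22.6 CPM, lay above all 3 of old mice fed ad libitum. Neither passed the threshold. Acute restriction gave 1 member call in 10 of 24 alternatives. That was 0.134% of member tests with the replicate block, against 0.367% of all gene tests. With a term for the libraries numbered 1 it was 0.134% against 0.384%, and with no filter on low counts 0.108% against 0.201%. In these settings members were called less often than all genes. Each comparison uses the same old ad libitum libraries as the ageing comparison, so the opposite signs are not independent of it.

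The medians of single members over classes again differed within the family. Under long-term restriction Rpl37 had a median change of -0.64 over 10 classes and Rpl39 -0.58 over 9, whereas Rpl7l1 had 0.26 over 8 and Rpl7 0.20 over 9. None of these was called in any class. These members were picked after their values were seen.

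The related gene lists were described beside the members for ageing, against 0.632% of all genes called lower and 0.858% called higher. Nuclear oxidative phosphorylation genes had 543 of 605 tests below 0 with 6 called lower (0.992%) and none higher, among them Cox7c, a subunit of cytochrome c oxidase, in precursor-like nuclei (-1.27, adjusted p = 0.0272, edgeR). Mitochondrial ribosomal protein genes had 481 of 578 tests below 0 with 2 called lower (0.346%), Mrps17 (-0.95) and Mrpl27 (-0.51) in granule-like nuclei, a share below that of all genes. Translation factors and other genes whose messenger RNAs begin with pyrimidines had 139 of 169 below 0 with 1 called lower (0.592%), Eef1b2 in oligodendrocyte-like nuclei (-1.43, adjusted p = 0.0154). Genes of ribosome biogenesis had 113 of 164 below 0 with 1 called lower (0.61%), the nucleolar methyltransferase Fbl in oligodendrocyte-like nuclei (-1.21, adjusted p = 2.31e-04). Genes of mTORC1 were even, with 72 of 148 below 0 and 2 called higher (1.35%): the kinase Mtor in granule-like (0.45, adjusted p = 0.0431) and its partner Rptor in oligodendrocyte-like nuclei (0.54, adjusted p = 0.0479).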

How the data were processed

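The deposited files held raw UMI counts per gene and nucleus, made by the authors with Cell Ranger 4.0.0, per the file headers, on mm10, per the submitters' processing notes. The library chemistry was a droplet method. Intron counting, strand, correction for free RNA and removal of doublets are not given in the sources used here.

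Of 105759 barcodes, 105427 passed a minimum of 500 genes and a mitochondrial limit of 5%. Scrublet scores marked 7386 of these as doublets. All 105427 were clustered with scanpy 1.11.5 (2000 variable genes without members, 30 components, 20 neighbours, Leiden resolution 1), which gave 34 clusters. The doublets were removed after clustering, which left 98041 nuclei for the naming and the sums. A cluster was named from at least 3 raised markers. A limit of 2 log2 units below the strongest cluster of the class was added after seeing the data and left 2 clusters unnamed, which held 0.943% to 3.196% of the nuclei of a group. In all 88642 nuclei were named. Differences from the study may come from these rebuilt names.

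Counts were summed per mouse and class with at least 20 nuclei. They were tested with edgeR 4.0.16 (TMM, filterByExpr, quasi-likelihood) with Benjamini-Hochberg adjustment over all genes of a class. CPM values within a class use the genes that passed the filter and TMM factors, and CPM values between classes use all UMIs of a sum. P-values of the group contrasts measure the spread between mice. Class differences and ageing by class had the mouse as a block and several sums from each mouse. Their p-values measure the spread left after the mouse and class terms, and not that between mice. DESeq2 1.42.0, other normalization, filters, covariates and leaving out each library were the alternatives, and the fits were tested on simulated data. Shares rest on 119 to 80648 member UMIs per sum and carry counting error besides the spread shown.

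The members and the gene lists were chosen with earlier results of these data known. Genes were named by rule: called pairs of smallest adjusted p without overlap between groups, the 10 largest class differences, the 3 members with most UMIs in each class, a fixed set of members and paralog pairs, and at most 3 called genes of each other list. Genes outside the rule are said to be so or illustrate a departure within a class, and were chosen after their values were seen. Some genes that the rule names are not reported here.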

Additional observations from a re-analysis of the deposited data

Results flagged for a closer look

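Symbols marked as pseudogenes lie outside the family as defined, and 4 of 5 in the matrices carried UMIs in the class sums. Rpl9-ps6 had 479 UMIs, with UMIs in 13 of 13 libraries, and Rpl10-ps3 had 173 UMIs, also in 13 libraries. Rpl36a-ps1 had 21 UMIs in 11 libraries and Rpl36-ps4 had 5 UMIs in 4 libraries. No other measurement was set against these counts.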

How the results depend on the processing

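The 12 member calls of ageing became 19 with no filter on low counts (1.12% of all gene tests called), 69 with the replicate block (4.94%), 91 with a term for the libraries numbered 1 (6.23%), 35 with those libraries left out (6.45%), 0 with median UMIs per nucleus as a covariate (0.0515%) and 0 with the gene length trend removed (0.619%). DESeq2 gave 13, of which 5 were among the 12, or 1.74% of member tests against 3.37% of all gene tests. Leaving out each library in turn gave 0 to 19. For acute restriction the 0 calls became 1 with no filter (0.201% of all gene tests called) and 1 with the replicate block (0.367%). They became 1 with the term for libraries numbered 1 (0.384%), 1 with the mitochondrial percent as a covariate (0.292%), and 0 to 1 without each library. For long-term restriction 0 became 1 with the libraries numbered 1 left out, a comparison of 1 mouse with 1 mouse in endothelial-like nuclei that assumes both to vary like the other groups. Class differences gave 624 calls of 902 member tests, against 60.3% of all gene tests. They gave 676 with RLE size factors, 756 with no scaling factors and 614 to 708 without each library. For these settings, and for ageing without each library, the share of all gene tests called over all classes is not reported here. These counts therefore do not show whether the members or all genes moved. The cause of these changes was not tested. No named pair called in a group contrast changed sign. In class differences the members' median in granule-like nuclei went from -0.1254 to 0.03061 with endothelial-like sums left out. The labels give the replicate numbers no shared source, and same-numbered pairs did not all correlate above 0.1. The 6 pairs numbered 1 all did in 8 of 11 classes (0.474 to 0.821 in granule-like nuclei). Under the replicate block 9.26% of member tests were called, against 4.94% of all gene tests. For ageing by class the block could not be separated from the mouse block. Low counts limit endothelial-like and mural-like sums, and 2 mice in some groups limit their age comparison.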
